A study of Mus musculus with 30 samples.

Results

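The genes described here are those of the cytosolic ribosomal proteins, the protein part of the ribosomes that translate nuclear mRNAs. They were taken from the count table by symbol: every Rpl or Rps symbol with a number and at most 1 further letter, and Rplp0, Rplp1, Rplp2 and Rpsa. This gave 81 of the 45317 genes, 49 of the large and 32 of the small subunit. Symbols of annotated pseudogenes (those with -ps) were left out. The counts came from 8 FACS-sorted populations of 4 C57BL6.CCR2RFP/WT mice, which carry 1 copy of Ccr2 replaced by a red fluorescent protein, were 12 to 18 weeks old and bore a GL261.BpalmGFP glioma in the striatum for about 4 weeks. The mice were male and female, and sex was not used in the comparisons. GL261 is a mouse glioma cell line, used here with a membrane-anchored GFP that other cells can take up. Ly6Chigh and Ly6Clow monocytes were sorted from the blood of mice 22, 23 and 24 (n = 3 each), and every population came from tumor-bearing animals. From the brain, glioma monocytes of mice 22, 24 and 26 (n = 3) and CCR2high and CCR2low macrophages of all 4 mice (n = 4) were each sorted as GFPneg or GFPpos. The brain gates held cells high in CD11b and CD45, CCR2 was read from the reporter, and brain cells were released from tissue before sorting while blood cells were not.

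A ribosome has a small subunit, which reads the mRNA, and a large subunit, which joins the amino acids, and each ribosomal protein is usually present in 1 copy per subunit. The genes of these proteins are therefore known for being expressed together, at high level, in nearly all cells. Many of their mRNAs begin with a run of pyrimidines (C and T in DNA letters) at the very start of the transcript, the 5′ terminal oligopyrimidine or TOP tract, through which growth signals regulate their translation. A few proteins have a second copy with a restricted pattern, such as Rpl3l in muscle and Rpl10l and Rpl39l in testis.

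The start of the gene is shown for 8 members, the 6 with the largest called difference between the blood monocytes at a mean of at least 10 CPM (counts scaled to a common library size) and the pair Rps27 and Rps27l, because a shared start sequence is what this family is known for. Each line gives 15 bases before and 15 from the RefSeq transcript start on (GRCm38.p6), and capitals mark the longest unbroken run of C and T in that window, on the transcribed strand. For genes with 2 annotated starts (Rps24, Rps21 and Rps27l) the start with the longer run is given.
Rpl12: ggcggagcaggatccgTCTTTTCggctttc
Rps24: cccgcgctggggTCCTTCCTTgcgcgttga
Rps21: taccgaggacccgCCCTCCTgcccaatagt
Rpl36a: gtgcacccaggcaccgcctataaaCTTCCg
Rps12: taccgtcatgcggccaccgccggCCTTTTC
Rpl5: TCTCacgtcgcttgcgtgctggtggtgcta
Rps27: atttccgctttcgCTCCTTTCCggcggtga
Rps27l: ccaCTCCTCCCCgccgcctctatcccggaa

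On the plus strand these windows lie at chr2:32961697-32961726 (Rpl12), chr14:24490663-24490692 (Rps24), chr2:180257364-180257393 (Rps21), chrX:134585639-134585668 (Rpl36a), chr5:107900513-107900542 (Rpl5) and chr9:66946071-66946100 (Rps27l). On the minus strand they lie at chr10:23787195-23787224 (Rps12) and chr3:90213634-90213663 (Rps27). In Rps24, Rps21 and Rps27 the run spanned the annotated start, in Rpl12 it began 1 base after the first transcribed base, and in Rps27l it ended before the start. In Rps12 and Rpl36a it began 8 and 9 bases after the first transcribed base, and in Rpl5, with 4 bases, it ended before the start. A run of at least 6 such bases was found in 38 of the 61 members whose symbol matched the RefSeq table (62.3%), against 8833 of the 27025 genes in that table (32.68%) and 2907 of the 8701 tested genes that matched (33.41%). The median longest run was 7 bases in the members and 5 in all genes. These runs are a description of the letters in the window, and among the 6 genes shown for their blood difference the runs were 4 to 9 bases long. A run anywhere in the window was counted, so these shares are not counts of TOP tracts.

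A replicate held between 1553616 and 5689644 counts on genes. Of the 81 genes, 79 passed the filter on low counts and were tested among 11566 genes. Both others were testis paralogs: Rpl10l had 0 counts in all 28 replicates, and Rpl39l had 102 counts in all, at most 12 in a replicate. Several libraries stood apart by their spike-in RNA, an artificial RNA mix added before reverse transcription. The amount added per sample is not given in the sources used here. The paper states a fixed mass of RNA as the input to reverse transcription, so spike-in scaling is not read here as RNA per cell. Spike-ins took 13.3% of the gene and spike-in counts in Ly6Clow monocytes of mouse 23, 2.47% in those of mouse 22, 3.59% and 5.16% in GFPpos glioma monocytes of mice 22 and 24, and 0.284% to 1.26% in the others. The Ly6Clow library of mouse 23 also had 6475 genes with 5 or more reads, against 9078 to 12340 in the rest. It was deposited apart from the other blood libraries, and the part of this in the results was not tested. Of the monocyte markers, Ly6c2 averaged 1176 CPM in Ly6Chigh and 123 CPM in Ly6Clow monocytes, and Spn (CD43) 50.9 and 345 CPM. Cx3cr1, which the paper describes as high in Ly6Clow monocytes, did not differ significantly in the paper's own test. The 10 monocyte and macrophage markers together summed to 29756 to 44236 CPM in Ly6Chigh and 19258 to 28977 CPM in Ly6Clow monocytes. In bulk samples such as these, fewer cells of a type and less RNA per cell cannot be told apart.

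The ribosomal protein genes together held 1.64% to 5.07% of the gene counts of a replicate, and the highest shares were in Ly6Clow blood monocytes. Their share there was 4.49%, 5.07% and 2.81% in mice 22, 23 and 24 (mean 4.12% ± 1.17, SD, n = 3). Ly6Chigh monocytes of the same mice had 2.55%, 2.35% and 1.95% (2.28% ± 0.308, SD, n = 3). All 3 Ly6Clow replicates lay above all 3 Ly6Chigh replicates, and mouse 24 was the lowest of both. The brain populations had mean shares of 2.09% ± 0.4002 in GFPneg and 2.69% ± 0.682 in GFPpos glioma monocytes (SD, n = 3). CCR2high macrophages had 2.38% ± 0.164 (GFPneg) and 2.26% ± 0.250 (GFPpos), and CCR2low macrophages 2.56% ± 0.528 (GFPneg) and 2.45% ± 0.293 (GFPpos, SD, n = 4 each). Only 3 brain replicates reached the lowest Ly6Clow share: GFPpos glioma monocytes of mouse 22 at 3.46%, and GFPneg CCR2low macrophages of mice 23 and 24 at 3.05% and 2.97%. The small subunit held 43.2% to 48.3% of the ribosomal protein counts in every replicate, with Ly6Clow monocytes at 46.6% to 48.3%. Duplicate reads were removed before counting, which can lower the counts of short abundant transcripts, and its part in these shares was not tested.

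**Figure D1:**
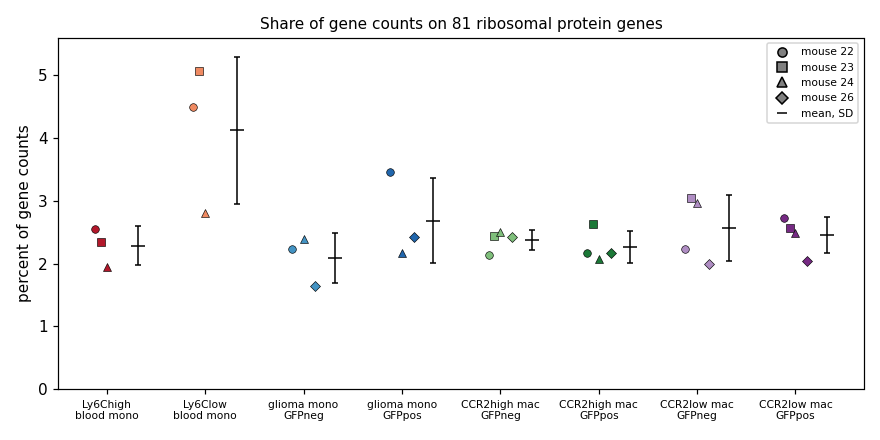
Share of gene counts (percent, vertical axis from 0) on the 81 ribosomal protein genes in each of the 8 populations, with 1 point per replicate, a marker shape per mouse and the mean with SD beside the points. Ly6Clow blood monocytes sit between 2.81% and 5.07%, Ly6Chigh monocytes between 1.95% and 2.55%.

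Levels differed widely between the genes, also per length. In CPM per kilobase of annotated exon, averaged over the 28 replicates, high levels were found for Rplp1 (746) and Rplp0 (681), both parts of the stalk that recruits elongation factors, then Rpl36 (635) and Rpl32 (595). The lowest of those tested were Rpl3l (2.21), Rps4l (12.9), which is annotated as a transcribed pseudogene, Rps24 (36.5), Rps15a (38.2) and Rpl10a (42.3). Among the 77 genes above 20 CPM the highest and the lowest differed 21.4-fold. The order depended on the length used: per kilobase of the principal protein-coding transcript, Rps27 (1290) and Rps14 (1066) came first and Rps15a (46.2) and Rpl22 (62.2) were the lowest of these 77. Reads that also lie on another gene were not counted, and 66.2% of the exon bases of Rpl35, 62.3% of Rpl23a and 47% of Rpl24 are shared with an annotated neighbour, so the levels of these 3 are uncertain.

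Between the blood monocytes, 35 of the 79 tested ribosomal protein genes were lower in Ly6Chigh than in Ly6Clow monocytes and 0 were higher. Over all tested genes 3.65% were lower and 1.96% higher in this comparison. By subunit, 20 of 32 small-subunit and 15 of 47 large-subunit genes were lower. The median log2 fold change of the 79 genes was -0.89, against 0.02 over all tested genes, and 78 of the 79 had a negative value. No overlap between the replicates, with Ly6Chigh lower, was found for 56 of the 79 genes and for 7.23% of all tested genes.

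Rpl12, which with Rplp0 forms the base of the stalk on the large subunit, had 89.9, 66.2 and 55.8 CPM in Ly6Chigh monocytes of mice 22, 23 and 24, and 224, 363 and 144 CPM in Ly6Clow monocytes. All 3 Ly6Clow values lay above all 3 Ly6Chigh values, and the log2 fold change was -1.79 ± 0.34 (SE, edgeR adjusted p = 0.001888). Rpl5, which binds the 5S rRNA and in free form the p53 regulator Mdm2, had 128, 124 and 95.7 CPM against 287, 460 and 173 CPM. Its difference was -1.41 ± 0.29 (SE, log2, edgeR adjusted p = 0.003748), again without overlap. Rpl36a, another large-subunit protein, had 59.0, 48.6 and 44.5 CPM against 123, 200 and 88.8 CPM, a log2 fold change of -1.43 ± 0.33 (SE, edgeR adjusted p = 0.008763).

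Of the small subunit, Rps24, a protein needed to process the 18S rRNA precursor, had 180, 165 and 139 CPM in Ly6Chigh and 418, 671 and 266 CPM in Ly6Clow monocytes. The replicates did not overlap, and the log2 fold change was -1.48 ± 0.30 (SE, edgeR adjusted p = 0.003025). Rps21 had 110, 102 and 81.7 CPM against 324, 344 and 161 CPM (-1.50 ± 0.34, SE, edgeR adjusted p = 0.008343). Rps12 had 115, 113 and 85.9 CPM against 283, 389 and 160 CPM (-1.41 ± 0.35, SE, edgeR adjusted p = 0.01724). In all 6 genes mouse 23 gave the highest and mouse 24 the lowest Ly6Clow value, and each Ly6Clow value was above every Ly6Chigh value.

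Markers of other cells moved with this comparison. The 7 T and NK cell markers summed to 27.5 to 233 CPM in Ly6Chigh and to 1028 to 1626 CPM in Ly6Clow monocytes, and the 5 B cell markers to 58.7 to 110 and 244 to 443 CPM, with no marker of either list at 0 throughout. The 5 neutrophil markers summed to 123 to 555 and 548 to 875 CPM, with Camp and Ngp at 0 in every Ly6Clow replicate. Measures of the libraries moved too. Mitochondrially encoded genes took 1.21% to 2.34% of counts in Ly6Clow and 0.533% to 0.719% in Ly6Chigh monocytes, without overlap, and reads on no gene 12.0% to 17.4% and 8.86% to 12.5%, with overlap. In brain populations the T and NK markers averaged 643 to 1423 CPM and the B cell markers 108 to 436 CPM. The part of these markers and measures in the ribosomal protein result was not tested. The spike-in share moved with this comparison too: scaled to the spike-ins, the median of the ribosomal protein genes turned to 1.15, with 1.69 over all tested genes, and 0 were called. The count of 35 was 56 with the mouse as a block and 60 by DESeq2. It was 0 when only the 2 blood populations were fitted and 11 without the 3 replicates over 3% spike-in. Leaving out 1 replicate gave 67 (Ly6Clow mouse 24), 8 (Ly6Clow mouse 23), 19 (Ly6Clow mouse 22), 15 (Ly6Chigh mouse 22) and 5 (Ly6Chigh mouse 23 or 24).

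**Figure D2:**
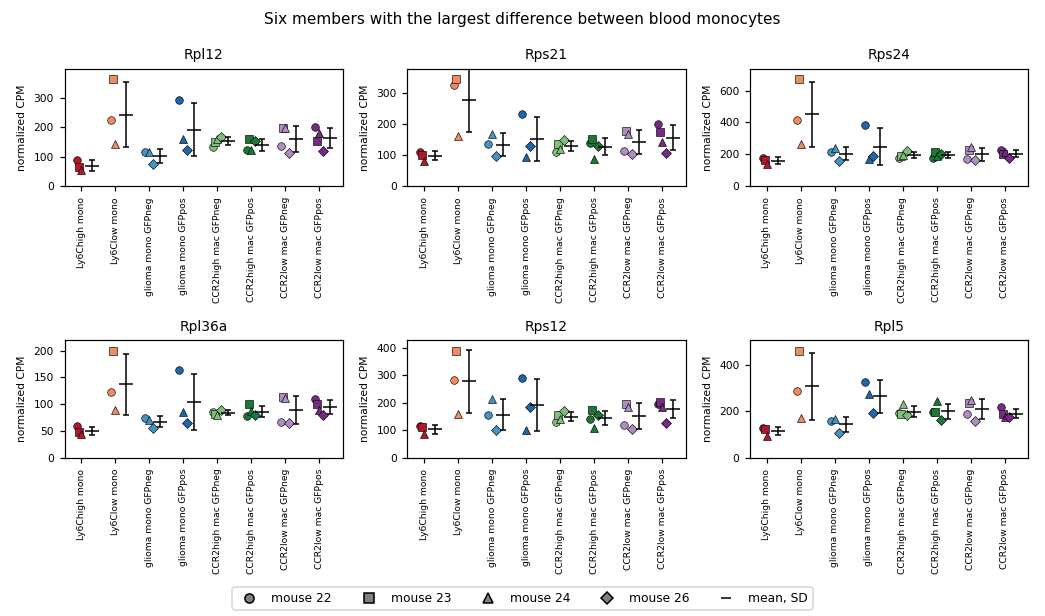
Normalized counts (CPM, linear vertical axes from 0) of the 6 ribosomal protein genes with the largest called difference between the blood monocytes, in each population, with 1 point per replicate, a marker shape per mouse and the mean with SD. In every panel the Ly6Clow values lie above the Ly6Chigh values. Under spike-in scaling the sign of each difference turned, to between 0.41 (Rpl12) and 0.81 (Rpl5) on the log2 scale, where the median of all tested genes was 1.69.

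The GFPneg brain populations were also lower than Ly6Clow monocytes in many ribosomal protein genes. These 3 comparisons were added after the values were seen, and all 4 comparisons with Ly6Clow share its 3 replicates. Glioma monocytes were lower in 39 and higher in 0 of the 79 genes (over all tested genes 5.51% lower, 13% higher). CCR2high macrophages were lower in 45 and higher in 0 (8.39% and 14.7%), and CCR2low macrophages lower in 33 and higher in 0 (8.35% and 15%). The medians were -0.80, -0.73 and -0.66 on the log2 scale, against 0.24, 0.25 and 0.26 over all tested genes. Of the 79 genes, 21 were lower in all 4 comparisons, 58 in at least 1 and 21 in none. Over all tested genes 0.925% were lower in all 4 and 12.8% in at least 1. By mean CPM with TMM scaling, Ly6Clow was the highest of the 8 populations for 76 of the 79 genes, and Ly6Chigh the lowest for 46. The share over all tested genes was not counted for this order, and the 79 genes moved largely together.

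Rps27, a zinc finger protein of the small subunit, had 969, 1069 and 638 CPM in Ly6Clow monocytes and 359, 334, 403 and 336 CPM in GFPneg CCR2high macrophages of mice 22, 23, 24 and 26. The difference was -1.32 ± 0.28 (SE, log2, edgeR adjusted p = 0.001384), and against GFPneg CCR2low macrophages, at 358, 424, 558 and 295 CPM, it was -1.12 ± 0.28 (SE, edgeR adjusted p = 0.005123). Both sets of macrophages stayed below the lowest Ly6Clow replicate. Rps27a, made as a fusion with ubiquitin, had 570, 917 and 351 CPM in Ly6Clow monocytes against 252, 296 and 201 CPM in GFPneg glioma monocytes (-1.30 ± 0.29, SE, edgeR adjusted p = 0.002204), without overlap. Among the other leading genes, Rpl8, a protein next to the catalytic center of the large subunit, was lower by -1.18 ± 0.27, -1.11 ± 0.25 and -1.05 ± 0.25 (SE) in glioma monocytes, CCR2high and CCR2low macrophages. Rpsa (-1.18 ± 0.32) was among the leading genes in glioma monocytes, Rps25 (-1.20 ± 0.27) in CCR2high and Rps14 (-1.07 ± 0.26) in CCR2low macrophages. Rps24 and Rpl37a were among the leading genes of both macrophage comparisons, at -1.19 ± 0.27 and -1.13 ± 0.25 in CCR2high and -1.16 ± 0.27 and -1.05 ± 0.25 in CCR2low macrophages.

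Scaled to the spike-ins, the medians of these 3 comparisons turned to 1.08, 1.40 and 1.24, below those of all tested genes (1.70, 1.87 and 1.74), and 0, 1 and 0 genes were called. Without the Ly6Clow replicate of mouse 23 the 3 counts were 6, 14 and 9. Without that of mouse 24, glioma monocytes gave 66 and CCR2low macrophages 61, and without that of mouse 22, CCR2high macrophages gave 27. Leaving out a brain replicate gave 22 or 6 in glioma monocytes (mouse 22 or 26), 16 in CCR2high (mouse 22) and 19 in CCR2low macrophages (mouse 22 or 26).

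**Figure D3:**
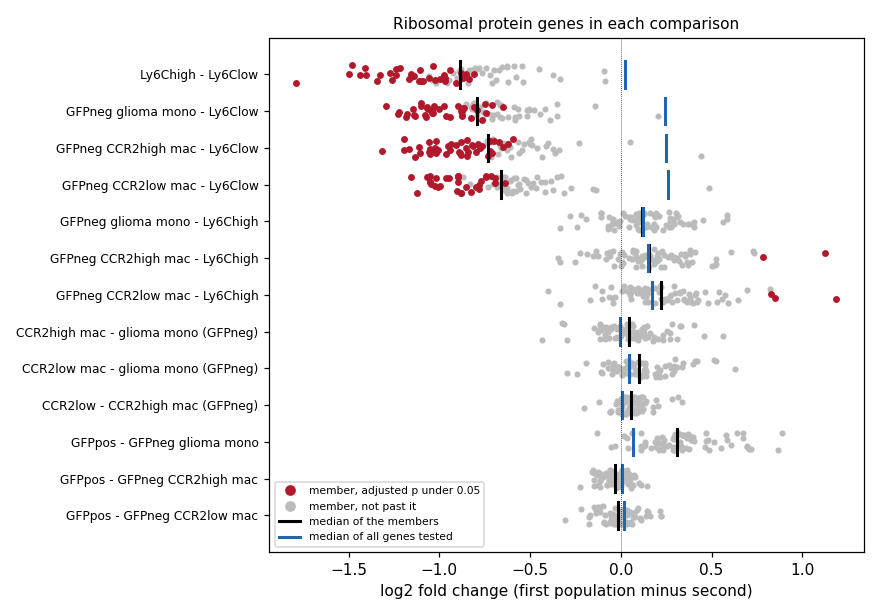
Log2 fold changes (horizontal axis, first population minus second, TMM scaling) of 77 ribosomal protein genes in 13 comparisons, with red points past an edgeR adjusted p of 0.05, a black bar at the median of the 79 tested genes and a blue bar at the median of all tested genes. Rpl3l and Rps4l, with few counts, are not drawn. The black bar lies well left of the blue one in the 4 comparisons with Ly6Clow (-0.89, -0.80, -0.73 and -0.66), where spike-in scaling turns the medians to 1.15, 1.08, 1.40 and 1.24. The medians of all tested genes are then 1.69, 1.70, 1.87 and 1.74.

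Against Ly6Chigh monocytes, the blood population sorted with the same high Ly6C as the glioma monocytes, the GFPneg brain populations differed in few of these genes. In glioma monocytes 0 of the 79 genes passed the test by edgeR, 0 had an unadjusted p under 0.05 and DESeq2 called 0, while 11.1% of all tested genes were higher and 2.68% lower. The median was 0.12 for both the ribosomal protein genes and all genes, and for 72 of the 77 genes above 20 CPM the 95% interval of the difference lay within 1 log2 unit of 0. CCR2high macrophages were higher in 2 genes and lower in 0 (over all genes 12.7% and 5.14%). CCR2low macrophages were higher in 3 and lower in 0 (14.1% and 6.09%). The share of ribosomal protein genes that were called was thus below that of all genes. Markers of other cells were higher in the brain populations. The 5 microglia markers summed to 168 to 281 CPM in Ly6Chigh monocytes, with Sall1 and Siglech at 0 throughout, and averaged 1649, 2247 and 3929 CPM in glioma monocytes, CCR2high and CCR2low macrophages, with none at 0 throughout. The T and NK markers averaged 107 CPM in Ly6Chigh monocytes and 828, 925 and 1423 CPM in these populations. Their part in the differences from Ly6Chigh monocytes was not tested.

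Rpl12 was higher in both macrophage populations: 135, 151, 162 and 166 CPM in GFPneg CCR2high and 136, 197, 197 and 112 CPM in GFPneg CCR2low macrophages, against 55.8 to 89.9 CPM in Ly6Chigh monocytes. No macrophage value reached down to a Ly6Chigh value, and the log2 fold changes were 1.12 ± 0.32 (SE, edgeR adjusted p = 0.0128) and 1.19 ± 0.32 (SE, edgeR adjusted p = 0.008176). Rpl5 had 191, 189, 233 and 182 CPM in CCR2high and 188, 237, 250 and 159 CPM in CCR2low macrophages, against 95.7 to 128 CPM. Its differences were 0.78 ± 0.27 (SE, edgeR adjusted p = 0.04314) and 0.85 ± 0.27 (SE, edgeR adjusted p = 0.02495). Rps20, a protein of the head of the small subunit, was called in CCR2low macrophages, with 262, 363, 372 and 201 CPM against 197, 168 and 143 CPM in Ly6Chigh monocytes. The groups were separated only narrowly, by 201 against 197 CPM, and the log2 fold change was 0.82 ± 0.27 (SE, edgeR adjusted p = 0.03198). With the mouse as a block, 5 and 8 genes were called in CCR2high and CCR2low macrophages, and DESeq2 called 4 and 8. Spike-in scaling called 0 in both, with Rpl12 at 1.20 and 0.9964 (log2). Leaving out 1 replicate left 0 (Ly6Chigh mouse 23 or 24) or 1 gene (Ly6Chigh mouse 22 or any CCR2high replicate) in the CCR2high comparison. In the CCR2low comparison it left 0 (Ly6Chigh mouse 24), 1 (Ly6Chigh mouse 22 or 23, CCR2low mouse 23 or 24) or 5 (CCR2low mouse 26).

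Within the brain no ribosomal protein gene passed the test. GFPneg CCR2high macrophages against GFPneg glioma monocytes gave 0 calls of 79 by edgeR and by DESeq2 and 0 at an unadjusted p under 0.05 (over all genes 0% higher and 0.182% lower). CCR2low macrophages against the same monocytes gave 0 by both tools and 1 at an unadjusted p under 0.05 (0.147% and 1.06%). CCR2low against CCR2high macrophages gave 0 by both and 0 (0% of all genes), and for all 77 genes above 20 CPM the 95% interval of this difference lay within 1 log2 unit of 0, between -0.77 and 0.83.

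Uptake of glioma membrane, read as GFP, likewise gave no call: 0 of 79 genes by edgeR and by DESeq2 in glioma monocytes, CCR2high and CCR2low macrophages, where 0% of all tested genes were called too. At an unadjusted p under 0.05 there were 13, 0 and 0 genes. In the macrophages the medians were -0.03 and -0.02 (with spike-in scaling -0.31 and 0.34, against -0.27 and 0.36 over all genes), and the 95% intervals of all 77 genes above 20 CPM lay within 1 log2 unit of 0. In glioma monocytes 75 of the 79 genes had a positive value, with a median of 0.31 against 0.07 over all genes. Without the GFPpos replicates of mice 22 and 24, whose spike-in shares were over 3%, that median was -0.06, with 31 of 79 positive, and 1 GFPpos replicate, from mouse 26, remained. Without the GFPpos replicate of mouse 22 alone it was -0.07. With spike-in scaling the median was -1.21, against -1.37 over all genes. The difference between the GFP effect in glioma monocytes and that in CCR2high or CCR2low macrophages was tested too, and edgeR called 0 of the 79 genes in either contrast, with 4 and 2 at an unadjusted p under 0.05. The 95% interval of these contrasts reached, at the median gene, 0.734 log2 units to either side.

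**Figure D4:**
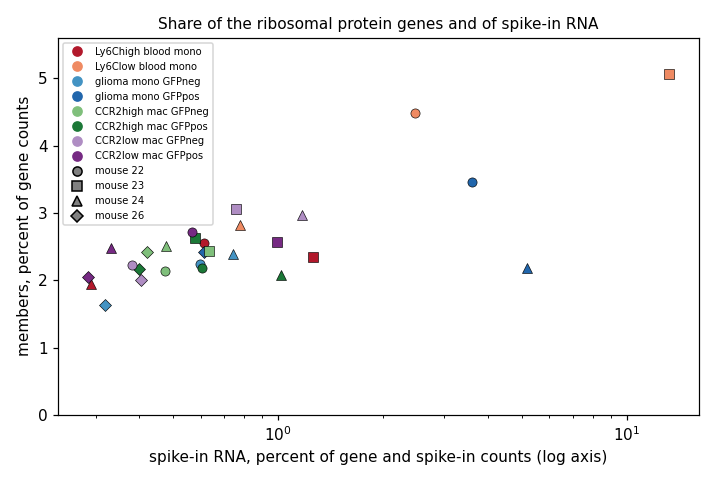
Share of gene counts on the ribosomal protein genes (percent, vertical axis from 0) against the share of spike-in RNA in the gene and spike-in counts (percent, log axis) for the 28 replicates, with a color per population and a marker shape per mouse. Ly6Clow monocytes of mouse 23 lie at 13.3% spike-in and 5.07%, those of mouse 24 at 0.779% and 2.81%, and GFPpos glioma monocytes of mouse 24 at 5.16% and 2.18%.

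The genes moved largely together. Across the 28 replicates the log2 level of a gene had a median Pearson correlation of 0.90 with the median of the 79 genes, and 68 of the 79 were above 0.8. All points share their libraries, so this is a description. The genes that varied most relative to that median were Rps4l, Rpl3l, Rps2, Rpl13, Rps25, Rpl12, Rpl10 and Rps27l. To compare the genes with each other rather than with the rest of the RNA, the fit was repeated with the summed ribosomal protein counts as library size.

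On that scale 2 genes were lower in Ly6Chigh monocytes and 0 higher (over all genes 1.09% and 6.23%). These were Rpl12 (-0.88 ± 0.20, SE, edgeR adjusted p = 0.01008) and Rps24 (-0.56 ± 0.17, SE, edgeR adjusted p = 0.04841). Both brain macrophage populations held more of Rpl12, Rps20, Rpl5, Rplp1 and Rpl36a and less of Rps9 than Ly6Chigh monocytes, that is 5 higher and 1 lower in each (over all genes 9.91% and 4.8% for CCR2high, 10.8% and 5.58% for CCR2low). Rpl12 led with 1.02 ± 0.19 in CCR2high and 1.01 ± 0.19 in CCR2low macrophages (SE, log2). Rps9, a protein at the mRNA entry of the small subunit, stood at -0.44 ± 0.14 and -0.49 ± 0.14. Its CPM were 990, 931 and 693 in Ly6Chigh monocytes, 729, 650, 715 and 668 in CCR2high and 681, 734, 792 and 556 in CCR2low macrophages, which overlap. These 2 comparisons share the Ly6Chigh replicates.

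Rps27 and its paralog Rps27l, a p53-induced gene, differed in pattern. Rps27l had 281, 330 and 137 CPM in Ly6Clow and 229, 207 and 111 CPM in Ly6Chigh monocytes, and 249, 262, 312 and 211 CPM in GFPneg CCR2high macrophages. Its groups overlapped, and it did not pass the test between the blood monocytes (-0.45 ± 0.30, SE, against Ly6Clow, edgeR adjusted p = 0.3999), where Rps27 did (-1.09 ± 0.31, SE, edgeR adjusted p = 0.03561). The ratio of Rps27 to Rps27l CPM was 3.78 ± 0.764 in Ly6Clow and 2.37 ± 0.321 in Ly6Chigh monocytes (SD, n = 3). In brain it was 2.44 ± 0.493 in GFPneg and 1.53 ± 0.276 in GFPpos glioma monocytes (SD, n = 3), and 1.40 ± 0.149 to 1.81 ± 0.375 in the 4 macrophage populations (SD, n = 4 each). Relative to the other ribosomal protein genes, CCR2high macrophages held more Rps27l (0.85 ± 0.21, SE) and Rps2 (1.02 ± 0.35) and less Rps27 (-0.57 ± 0.17) and Rpl3l than Ly6Clow monocytes. That made 2 higher and 2 lower, where 22.4% and 2.41% of all genes were. CCR2low macrophages held more Rps2 (1.03 ± 0.35) and Rps27l (0.61 ± 0.21) and less Rpl3l, 2 higher and 1 lower, where 21.1% and 2.46% of all genes were.

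Rps2 and Rpl13 did not share the pattern of the others. Rps2, at the mRNA entry of the small subunit, had 336, 361 and 253 CPM in Ly6Chigh and 436, 184 and 388 CPM in Ly6Clow monocytes. Rpl13 had 710, 709 and 520 against 1094, 247 and 728 CPM. In both genes the Ly6Clow replicate of mouse 23 was the lowest of the 6, where it was the highest for the leading genes above, and the groups overlapped. The log2 differences were -0.09 ± 0.26 and -0.09 ± 0.32 (SE, edgeR adjusted p = 0.9138 and 0.9355). The Rps2 calls above against Ly6Clow monocytes on the summed-count scale include the replicate of mouse 23 and were not repeated without it. Rps2 was the only ribosomal protein gene higher in the mean of the 6 brain populations than in the mean of both blood populations, by 0.44 ± 0.15 (SE, log2, edgeR adjusted p = 0.02055). This call held in 36 of 41 alternatives, and leaving out 1 replicate moved the value between 0.26 and 0.53. Over the alternatives (edgeR or DESeq2) its adjusted p lay between 0.004516 and 0.2262. The blood mean of Rps2 includes the low Ly6Clow value of mouse 23. In that comparison 17 were lower (over all genes 25.8% higher and 13.8% lower), led by Rps27 (-0.65 ± 0.17), Rpsa (-0.61 ± 0.17), Rpl37a (-0.59 ± 0.15), Rps27a (-0.54 ± 0.15), Rps9 (-0.53 ± 0.15) and Rps14 (-0.51 ± 0.15, SE), and with spike-in scaling the values of all of these but Rps27 turned positive while Rps27 was near 0. Without the Ly6Clow replicate of mouse 24, 42 genes were called, and without GFPpos glioma monocytes of mouse 22, 32. Rps25, whose product lies on the head of the small subunit, had 370, 762.2 and 331 CPM in Ly6Clow monocytes and 167 to 288 CPM in GFPneg CCR2high macrophages, which did not overlap. Across all 8 populations 28 of the 79 genes differed, against 25.1% of all tested genes. That count was 14, 8 or 47 without the Ly6Clow replicate of mouse 22, 23 or 24, and 17 or 15 without mouse 22 in GFPneg or GFPpos CCR2high macrophages.

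Rpl3l, the paralog of Rpl3 known from muscle, was thinly counted, with its highest counts in Ly6Clow monocytes. It had 47, 40 and 69 counts (22.2, 15.4 and 20.4 CPM) in Ly6Clow monocytes and 0 to 12 counts, at most 4.49 CPM, in the other 25 replicates. It was the 1 gene of the 79 whose Ly6Clow replicates lay above every replicate of every other population. This held for 1.38% of all tested genes, so 1 of 79 is near the share over all genes. Rpl3l passed the filter on low counts through its Ly6Clow replicates, the group where it is high. The tests against Ly6Clow monocytes, here and on the summed-count scale above, are therefore not independent of that selection. The log2 fold change was -3.82 ± 0.93 in CCR2high macrophages (SE, edgeR adjusted p = 0.003838), -3.63 ± 0.92 in CCR2low macrophages (SE, edgeR adjusted p = 0.00553) and -2.99 ± 1.003 in glioma monocytes (SE, edgeR adjusted p = 0.03739). Without a filter on low counts the glioma monocyte difference did not pass (edgeR adjusted p = 0.1193). The glioma monocyte call held in 8 of 19 alternatives, with adjusted p from 0.004602 (DESeq2) to 0.4661 (edgeR, spike-in scaling). It was lost without any 1 of the glioma monocyte replicates (0.07126, 0.126 and 0.1061 without mouse 22, 24 and 26) and without Ly6Clow mouse 22 (0.07087) or 23 (0.05251), each by edgeR. In Ly6Chigh monocytes, with 8, 0 and 8 counts, it was -3.22 ± 1.01 and did not pass (SE, edgeR adjusted p = 0.05858). Rps4l had 0 to 98 counts in a replicate, with its lowest value, 0, in the Ly6Clow replicate of mouse 23, as Rps2 and Rpl13 had their lowest there.

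**Figure D5:**
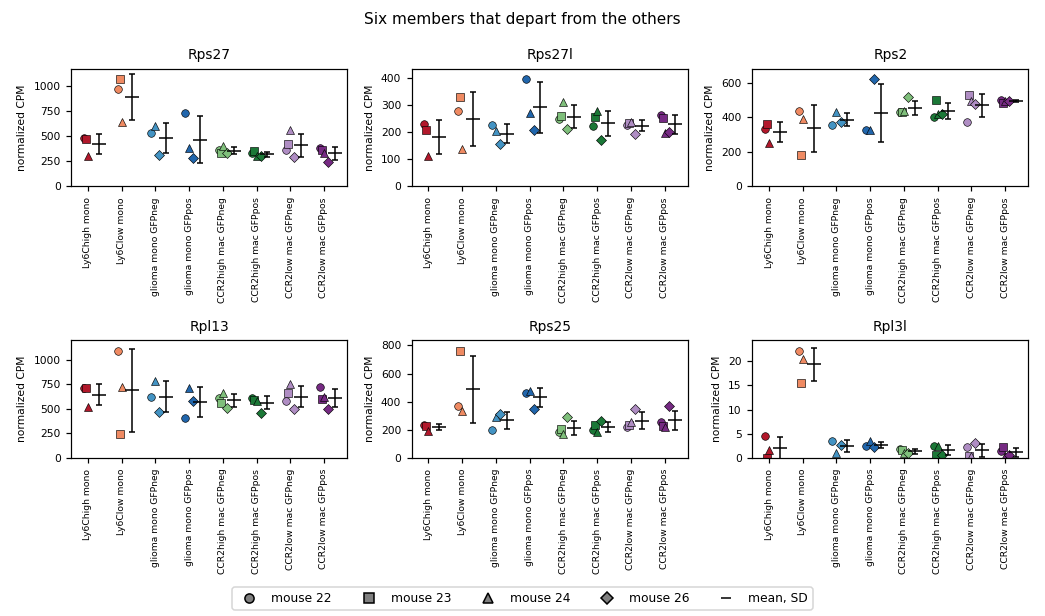
Normalized counts (CPM, linear vertical axes from 0) of 6 ribosomal protein genes that depart from the others, with 1 point per replicate, a marker shape per mouse and the mean with SD. Rps27l overlaps between the blood monocytes while Rps27 does not, Rps2 and Rpl13 have their lowest value in the Ly6Clow replicate of mouse 23, and Rpl3l is above 5 CPM in the 3 Ly6Clow replicates alone.

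Other genes of the ribosome and of translation gave this picture in the blood comparison. Of 9 tested ribosomal protein genes outside the symbol rule, 2 were lower in Ly6Chigh monocytes, Gnb2l1 (RACK1, a scaffold on the small subunit, -1.37 ± 0.31) and Rps3a1 (-1.01 ± 0.27, SE), with a median of -0.96. Of 37 translation factors 3 were lower, Eif4a2, an RNA helicase of initiation (-1.85 ± 0.43), and the elongation factor subunits Eef1b2 (-1.55 ± 0.35) and Eef1g (-1.46 ± 0.33), with a median of -0.37. Of 43 ribosome biogenesis genes 4 were lower, led by Grwd1 (-3.03 ± 0.62), Nop16 (-1.86 ± 0.51) and Nop10 (-1.08 ± 0.29), with a median of -0.39. Of 23 regulators of ribosomal protein genes and mRNAs 1 was lower, Akt1 (-1.98 ± 0.48), with a median of 0.31. Mitochondrial ribosomal proteins, which serve the separate ribosome of mitochondria, had 4 of 76 lower and a median of -0.35. In these 5 lists 0 genes were higher, while over all tested genes 3.65% were lower and the median was 0.02. Of the 7 tested paralogs, 0 were called by edgeR and 2 had an unadjusted p under 0.05.

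Against Ly6Chigh monocytes some biogenesis genes were higher in the brain macrophages and few in glioma monocytes. In GFPneg glioma monocytes, CCR2high and CCR2low macrophages 2, 9 and 8 of the 43 were higher and 0 lower, where 11.1%, 12.7% and 14.1% of all tested genes were higher and 2.68%, 5.14% and 6.09% lower. These shares are the background of each list here. The share of biogenesis genes that were higher lay below it in glioma monocytes and above it in both macrophage populations. That of the mitochondrial ribosomal proteins, given below, lay below it in all 3. The microglia, T and NK markers given above were higher in the same populations. Ncl (nucleolin), which works on the rRNA precursor, was higher by 1.08 ± 0.22, 1.49 ± 0.21 and 1.44 ± 0.21, and Grwd1 by 1.81 ± 0.61, 2.29 ± 0.59 and 2.60 ± 0.60 (SE, log2). Gnl3 (2.01 ± 0.69 and 2.03 ± 0.69) was called in both macrophage populations. Myc, a transcription factor that drives ribosome production, was higher by 2.56 ± 0.40, 2.92 ± 0.40 and 3.13 ± 0.40 (SE, edgeR adjusted p = 5.773e-05, 5.645e-06 and 2.111e-06), and Mxd1, a repressor that competes for the partner of Myc, by 4.17 ± 0.78, 2.10 ± 0.70 and 2.27 ± 0.70. Together with Sesn2 in glioma monocytes, these made 3, 2 and 2 of the 23 regulators higher and 0 lower. Of the translation factors Eif4g2 was lower in all 3 (-0.79 ± 0.21, -0.71 ± 0.20 and -0.68 ± 0.20) and Eif2s1 higher in both macrophage populations (1.12 ± 0.28 and 0.89 ± 0.27), which with Eef1g in CCR2low macrophages made 0, 1 and 2 of 37 higher and 1, 1 and 1 lower. Mitochondrial ribosomal proteins had 1, 7 and 6 of 76 higher and 1, 1 and 2 lower, led by Mrpl13 (1.74 ± 0.42, 2.10 ± 0.41 and 2.06 ± 0.41) and, lower, Mrpl33 (-1.07 ± 0.29, -1.35 ± 0.27 and -1.29 ± 0.27). Of the ribosomal proteins outside the rule and the paralogs 0 were called by edgeR. These 3 comparisons share the Ly6Chigh replicates, and brain cells alone went through tissue dissociation, whose part cannot be told apart from that of the site.

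Among the genes outside the symbol rule whose log2 level followed the median of the 79 genes most closely over the 28 replicates were Snrpe, of the spliceosome (Pearson correlation 0.93), Ubl5 (0.92), Gnb2l1 (0.92) and Cox4i1, of the respiratory chain (0.91). Their mean levels in Ly6Clow and Ly6Chigh monocytes were 245 and 108 CPM (Snrpe), 258 and 133 CPM (Ubl5), 1059 and 411 CPM (Gnb2l1), and 847 and 586 CPM (Cox4i1). All 4 had their highest mean in Ly6Clow monocytes.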

How the data were processed

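RNA of sorted cells, with spike-in RNA added, was amplified from poly-A ends and sequenced as paired reads. The authors aligned the reads with STAR, removed duplicates with Picard 1.8.4 and counted reads with HTSeq on a GRCm38.p3 annotation. The deposited values are whole-number counts per gene, not normalized. The table lists 0 reads aligning to several places, and leaving such reads out can lower genes with pseudogene copies. Counts on pseudogene symbols, which are not among the members, came to 0.175% to 0.387% of the size of the member counts. Reads on no gene (6.28% to 17.4%) or on several (1.58% to 1.9%) were left out of library sizes. The strand setting is not given in the sources used here.

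Of 30 libraries, 1 of Ly6Clow monocytes of mouse 23 had under 6000 genes with 5 or more reads and was left out, and the 2 of GFPpos glioma monocytes of mouse 22 were summed, giving 28 replicates, each from 1 mouse. The Ly6Clow library of mouse 23 that was used and the second GFPpos library were deposited as a set apart from the others. Any difference between these sets was not modelled, and its part in the results was not tested.

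All 8 populations were fitted together in edgeR 4.0.16 (R 4.3.3) with TMM factors, filterByExpr and robust quasi-likelihood tests. Calls are at an adjusted p (Benjamini-Hochberg, over the 11566 genes tested) below 0.05. SE is the absolute log2 fold change over the root of F, and 95% intervals are normal ones from it. For log2 CPM the prior count was 2. Lengths and overlaps are from GENCODE vM21 (GRCm38), start sequences from RefSeq. The test was checked on simulated counts. Alternatives were DESeq2 1.42.0, other scalings and filters, a mouse block and leaving out replicates.

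Named genes are up to 6 called members per direction and comparison with a mean of at least 10 CPM, the 5 highest and 5 lowest per length, members that failed the filter, the 8 most variable, up to 3 called genes per list and direction, and the 5 closest followers. Some genes that this rule selects are not reported here. Rps9, Rplp1, Rps20 and Rpl36a on the summed-count scale were named because they were called there. Members and lists were chosen with earlier results of these data known. The numbers in the sample titles were taken as the mouse. Residuals of 86 same-mouse pairs of replicates had a median correlation of 0.136 (47 over 0.1), against -0.0303 in 256 pairs of different mice (20 over 0.1). Figures used Python 3.11.15 and matplotlib 3.10.9.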

Additional observations from a re-analysis of the deposited data

Results flagged for a closer look

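In 120 sets of 4 macrophage replicates of the named ribosomal protein genes, 4 replicates lay further from the others than Dixon's 95% critical value allows, and chance flags about 5% of such sets. Rpl13 was 463.4 CPM in GFPpos CCR2high macrophages of mouse 26, against 586 to 610 CPM in the other mice. Rplp1 was 394.7 CPM in GFPneg CCR2high macrophages of mouse 24, against 322 to 332 CPM. Rps2 was 519.4 CPM in GFPneg CCR2high macrophages of mouse 26, against 431 to 437 CPM. Rpsa was 407.5 CPM in GFPpos CCR2low macrophages of mouse 26, against 655 to 703 CPM. The library of Ly6Clow monocytes of mouse 23 that was left out of the comparisons had 6.054% of its gene counts on the ribosomal protein genes, with 18.02% spike-in and 3460 genes with 5 or more reads, and the one used in its place had 5.07%, 13.3% and 6475. The cause of these values was not tested.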

How the results depend on the processing

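Counts of called ribosomal protein genes in Ly6Chigh against Ly6Clow monocytes (35) became 0 with spike-in scaling, 2 with summed-member scaling, 15 without a filter, 56 with the mouse as a replicate block, 0 with only the compared populations, 11 without replicates over 3% spike-in and 60 by DESeq2. For CCR2high macrophages against Ly6Chigh (2) they were 0 with spike-ins, 1 with TMM factors without the members, 6 summed, 1 unfiltered, 4 with at least 10 counts in every replicate, 5 with the block, 5 with the compared populations, 1 with either library of GFPpos glioma monocytes of mouse 22 alone, 5 without high spike-in and 4 by DESeq2. For CCR2low against Ly6Chigh (3) they were 6 with DESeq2 size factors, 0 with spike-ins, 6 summed, 1 unfiltered, 9 with the strict filter, 8 with the block, 7 without high spike-in and 8 by DESeq2. Against Ly6Clow, spike-in, summed, unfiltered, compared-only and low-spike-in settings gave 0, 0, 20, 0 and 11 in glioma monocytes (39), 1, 4, 24, 2 and 17 in CCR2high (45) and 0, 3, 20, 0 and 14 in CCR2low macrophages (33). Brain against blood (18) gave 0 with spike-ins. Any difference (28) gave 0 with spike-ins, 6 summed, 18 unfiltered, 10 without high spike-in and 44 by DESeq2. The block moved no other count by over 1.5 times. The share in GFPneg CCR2high macrophages was 2.141% of all counts.

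Leaving out 1 replicate gave 5 to 67 (Ly6Chigh against Ly6Clow, 67 without Ly6Clow mouse 24, 5 without Ly6Chigh mouse 23 or 24), 0 to 1 and 0 to 5 (CCR2high and CCR2low against Ly6Chigh), 6 to 66, 14 to 65 and 9 to 61 (glioma monocytes, CCR2high and CCR2low against Ly6Clow), 13 to 42 (brain against blood), 8 to 47 (any difference) and 0 to 0 in the others. Mean shares ranged over 2.149 to 2.452% (Ly6Chigh), 3.652 to 4.78% (Ly6Clow), 1.934 to 2.314% and 2.297 to 2.94% (GFPneg and GFPpos glioma monocytes), 2.334 to 2.458% and 2.14 to 2.325% (CCR2high), and 2.399 to 2.75% and 2.365 to 2.592% (CCR2low).

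Medians of comparisons with calls turned with spike-in scaling to 1.152 (Ly6Chigh against Ly6Clow), 1.075, 1.402 and 1.24 (glioma monocytes, CCR2high and CCR2low against Ly6Clow) and 0.4766 (brain against blood), and with summed scaling to 0.04311 (CCR2high), 0.06477 (CCR2low) and 0.03676 (brain against blood). Medians of comparisons without calls turned with spike-ins to -0.03926 (glioma monocytes against Ly6Chigh), -0.1687 (CCR2low against CCR2high), -1.212 and 0.3431 (GFP in glioma monocytes and CCR2low macrophages), and with summed scaling to -0.0207, 0.003762 and 0.00311 (GFP in glioma monocytes, CCR2high and CCR2low macrophages). With spike-ins, Ly6Chigh against Ly6Clow gave Rpl12 0.4103, Rps21 0.6087, Rps24 0.731, Rpl36a 0.7301, Rps12 0.7499 and Rpl5 0.8109. Glioma monocytes against Ly6Clow gave Rps27a 0.7666, Rpl12 0.7988, Rpsa 0.6324 and Rpl8 0.783. CCR2high gave Rps27 0.7218, Rps25 1.037, Rps24 1.087, Rps27a 1.13, Rpl37a 0.9925 and Rpl8 1.071, and CCR2low Rps24 0.8709, Rps27 0.6466, Rps14 0.9173, Rpl37a 0.8623, Rpl8 0.918 and Rps27a 1.012. Brain against blood gave Rpsa 0.0592, Rpl37a 0.1107, Rps27a 0.2716, Rps9 0.2443 and Rps14 0.2481. Of 863 values of named genes under the alternatives, 729 kept direction and call, 107 kept direction and lost the call and 27 turned. The cause was not tested. Low counts limit Rpl3l, Rps4l and Rpl39l.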

Other observations

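Within the brain populations some ribosomal protein genes had the same mouse as the highest or lowest throughout. Of those named here, Rps4x, Rpl8, Rps14 and Rpl32 were also lower in all 4 comparisons with Ly6Clow monocytes. Relative to the median of the 79 genes, mouse 26 had the highest level in all 6 brain populations for Rpl10, Rps4x, Rps26 and Rpl8, on average 0.51, 0.34, 0.28 and 0.25 above the other mice on the log2 scale. Rps25 and Rps2 were highest in mouse 26 in 5 of the 6, by 0.75 and 0.50. Rps23 and Rps14 were highest in mouse 24 in all 6 populations, by 0.19 and 0.17, and Rpl32 and Rps9 were lowest in mouse 23 in its 4 brain populations, with differences of -0.23 and -0.22. For mouse 22 this held for 0 genes in either direction. These genes were chosen after their values were seen, and no test was made. Rpl10 and Rps4x lie on the X chromosome, while Rps26 and Rpl8 lie on chromosomes 10 and 15. Rpl36a and Rpl39 lie on the X chromosome too. They were highest in mouse 26 in 3 and 1 of the 6 brain populations, with mean differences of -0.017 and -0.071. Mice of both sexes were used, and the part of sex was not tested.

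The pair of libraries of GFPpos glioma monocytes of mouse 22 differed in the family as in spike-in RNA: 3.99% of gene counts with 8.68% spike-in in the first, 3.24% with 1.29% in the second.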
